A study of Mus musculus with 15 samples.

Results

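The genes described here are 8 mouse genes that end the cyclic AMP (cAMP) signal or switch off the receptors that start it: the cAMP phosphodiesterases Pde4a, Pde4b, Pde4c, Pde4d, Pde3a and Pde3b, and the beta-arrestins Arrb1 and Arrb2. They are 8 of the 55416 genes in the deposited count table and were chosen by name with earlier results of both stretch comparisons in these samples known, so their stretch values are given as a description. RNA came from 15 samples of SVI cells, a conditionally immortalised mouse podocyte line that was differentiated and seeded on flexible silicone membranes; podocytes are the epithelial cells that wrap the filtering capillaries of the kidney. Experiment 1 compared 6 low-stretch samples (membrane deflection of 5 to 6 mm in the sample labels) with 3 unstretched ones, and experiment 2 compared 3 high-stretch samples (7 to 8 mm) with 3 other unstretched ones, to ask how mechanical load that models high glomerular pressure alters expression and splicing. The design text gives 6 and 8 mm for the same settings, and neither it nor the labels give a drug treatment or the length of stretching. All samples are one cell line, and nothing in the labels says whether replicates are separate cultures or separate days, so the tests measure the spread between these samples. High stretch was applied only in experiment 2, so amplitude and experiment cannot be told apart, and each stretched group is set against its own unstretched samples.

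Binding of a ligand to a receptor coupled to the stimulatory G protein lets adenylyl cyclase make cAMP, which activates protein kinase A (PKA), the exchange factor Epac and, through CREB proteins, transcription. Phosphodiesterases hydrolyse cAMP and so limit the signal in time and space: the PDE4 enzymes are specific for cAMP, whereas the PDE3 enzymes also bind cyclic GMP, which inhibits them. Beta-arrestins bind receptors that G protein-coupled receptor kinases have phosphorylated, uncouple them from the G protein, and can carry PDE4 enzymes to the receptor. In podocytes cAMP is known as a regulator of the actin cytoskeleton and of foot process shape.

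Pde4 genes make long and short proteins from different starts. Long forms hold upstream conserved region 1, a segment with a PKA site through which PKA activates the enzyme, and short forms lack it. In an alignment of the longest protein of each gene, the most N-terminal conserved block had 22 residues, 18 of them identical in all 4 proteins, and the transcripts were sorted into long and short forms by whether they encode it. The coding bases of this block are shown because its presence was used here to sort the forms. Whether a transcript also keeps the PKA site was not checked. The fragments Pde4b-206, Pde4b-210 and Pde4c-203 encode the block without the whole catalytic part and were counted as long forms. Capitals mark the 39 of 66 bases that are the same in all 4 genes (59.1%). All sequences in the text read 5′ to 3′, and these 4 come from GENCODE M21 transcripts.
Pde4a (residues 166 to 187 of Pde4a-202): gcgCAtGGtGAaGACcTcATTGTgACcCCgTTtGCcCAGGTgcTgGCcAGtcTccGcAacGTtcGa
Pde4b (residues 159 to 180 of Pde4b-208): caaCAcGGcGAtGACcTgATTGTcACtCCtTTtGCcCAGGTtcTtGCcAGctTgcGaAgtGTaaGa
Pde4c (residues 147 to 168 of Pde4c-202): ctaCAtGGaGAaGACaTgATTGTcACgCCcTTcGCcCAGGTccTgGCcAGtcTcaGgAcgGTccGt
Pde4d (residues 211 to 232 of Pde4d-208): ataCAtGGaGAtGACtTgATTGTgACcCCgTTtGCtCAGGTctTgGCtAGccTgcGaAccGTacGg

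Gene counts are given as CPM (counts-per-million), with library sizes scaled by TMM, a correction for RNA composition, and a gene is said to have risen or fallen where edgeR's quasi-likelihood test over all genes gave a Benjamini-Hochberg adjusted p under 0.05. Libraries held 172.2 to 396.7 M counts. Under low stretch, Pde4b and Pde4d rose and Arrb1 fell, which is 3 of the 8 genes tested, against 5.45% of all 21672 genes tested in that comparison (1.85% rose and 3.6% fell). Under high stretch, Pde4d rose and Pde4c and Arrb1 fell, which is 3 of the 7 genes tested, against 3.47% of 18524 genes (1.31% rose and 2.16% fell); Pde3a had too few counts to be tested there. Pde4d and Arrb1 passed in both comparisons in the same direction, as 1.52% of the 18403 genes tested in both did. The median log2 fold change of the 8 genes was 0.19 under low stretch and that of the 7 genes 0.14 under high stretch, beside 0.01 and −0.02 over all genes tested. Since the genes were chosen with these contrasts known, nothing is read from these shares.

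**Figure D1:**
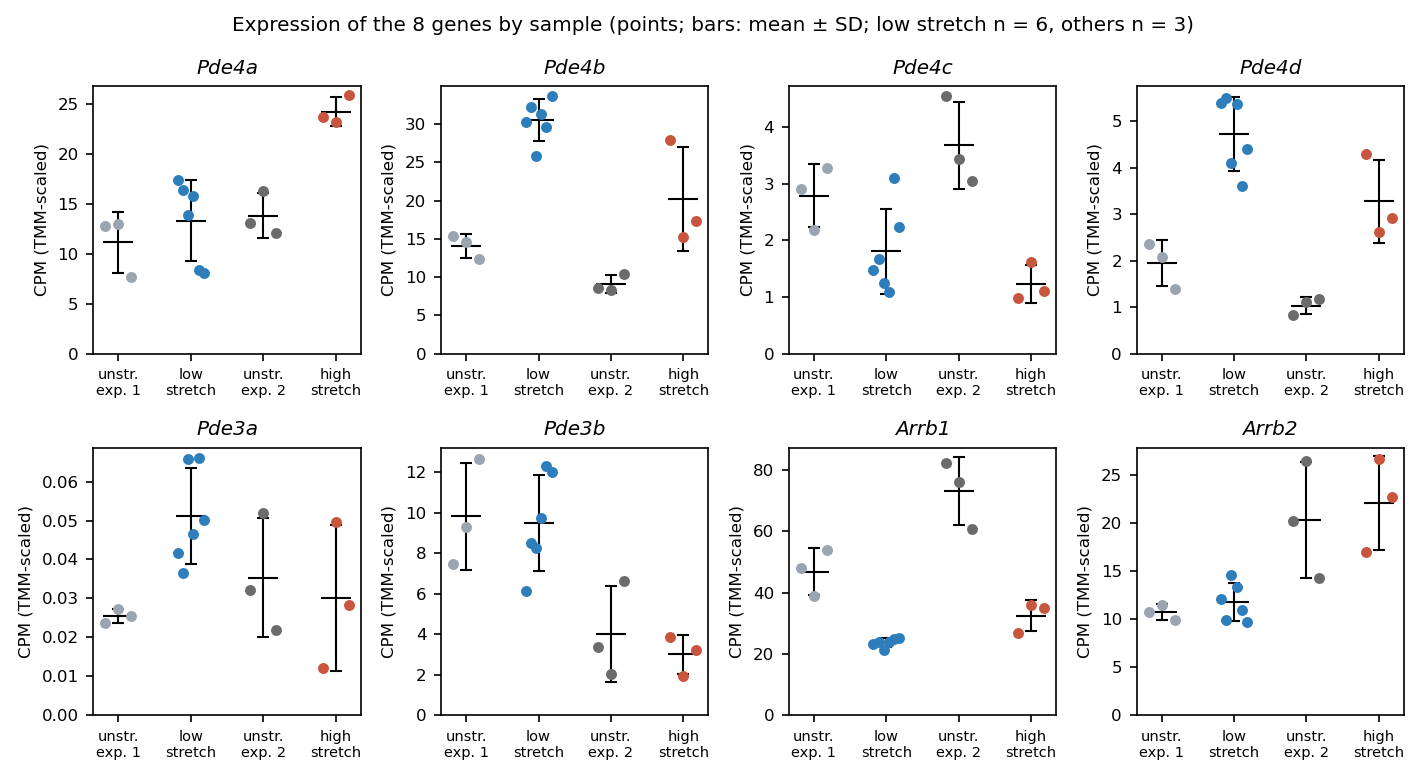
CPM of the 8 genes in each of the 15 samples (points), with the group mean and SD (bars), on linear axes that start at 0. Pde4b and Pde4d are higher in every stretched sample than in any unstretched sample of the same experiment, and Arrb1 is lower in every one.

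Pde4b (ENSMUSG00000028525), on chromosome 4, was the most abundant PDE4 gene in experiment 1. Its product is the PDE4 enzyme best known from inflammatory cells. Its CPM was 15.4, 14.5 and 12.4 in the unstretched samples of experiment 1 and 25.8 at the lowest, 30.9 at the median and 33.7 at the highest in the 6 low-stretch samples. The unstretched samples of experiment 2 had 8.59, 8.29 and 10.4 and the high-stretch samples 27.98, 15.3 and 17.4 CPM. The stretched and unstretched samples overlapped in neither experiment, and the first high-stretch replicate stood above the other two. The log2 fold change was 1.11 ± 0.11 (SE; 2.16-fold) under low stretch and 1.17 ± 0.28 under high stretch; the second, although as large, did not pass the threshold in the comparison of 3 with 3 samples.

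Pde4d (ENSMUSG00000021699), on chromosome 13, encodes the PDE4 enzyme known for its recruitment to beta-adrenergic receptors by beta-arrestin. Its CPM was 2.36, 2.08 and 1.39 in the unstretched samples of experiment 1 and 3.61 at the lowest, 4.88 at the median and 5.49 at the highest under low stretch. Experiment 2 gave 0.818, 1.10 and 1.17 unstretched and 4.29, 2.62 and 2.92 under high stretch. Every stretched sample exceeded every unstretched sample of its experiment. The log2 fold change was 1.27 ± 0.21 (2.42-fold) under low stretch and 1.69 ± 0.29 (3.22-fold) under high stretch.

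Pde4c (ENSMUSG00000031842), on chromosome 8, was the PDE4 gene whose values went down. Its CPM was 2.90, 2.18 and 3.28 in the unstretched samples of experiment 1 and 1.09 at the lowest, 1.57 at the median and 3.10 at the highest under low stretch, so these groups overlapped. Values in experiment 2 were 4.54, 3.43 and 3.05 unstretched and 0.975, 1.61 and 1.10 under high stretch, with no overlap. Low-stretch replicates 5 and 6 held the highest values of their group. The log2 fold change was −0.64 ± 0.29 under low stretch, which did not pass, and −1.56 ± 0.28 (2.96-fold lower) under high stretch, which did.

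Pde4a (ENSMUSG00000032177), on chromosome 9, encodes a widely expressed PDE4 enzyme. Its CPM was 12.8, 12.9 and 7.62 in the unstretched samples of experiment 1 and 8.10 at the lowest, 14.8 at the median and 17.4 at the highest under low stretch. In experiment 2 it was 13.1, 16.3 and 12.1 unstretched and 23.6, 23.1 and 25.9 under high stretch. The groups overlapped in experiment 1, where unstretched replicate 3 and low-stretch replicates 5 and 6 were the 3 low samples, and did not overlap in experiment 2. The log2 fold changes of 0.25 ± 0.28 and 0.83 ± 0.19 did not pass.

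Arrb1 (ENSMUSG00000018909) encodes beta-arrestin 1, which is found in the nucleus as well as in the cytoplasm. Its CPM was 47.9, 38.7 and 53.8 in the unstretched samples of experiment 1 and 21.3 at the lowest, 23.8 at the median and 25.3 at the highest under low stretch. The values of experiment 2 were 82.4, 76.1 and 60.8 unstretched and 26.7, 35.8 and 34.9 under high stretch. All 9 stretched samples lay below every unstretched sample of either experiment. The log2 fold change was −0.99 ± 0.09 (1.98-fold lower) under low stretch and −1.15 ± 0.19 (2.22-fold lower) under high stretch.

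Arrb2 (ENSMUSG00000060216) encodes beta-arrestin 2, the form with the higher affinity for many receptors. Its CPM was 10.7, 11.5 and 9.89 in the unstretched samples of experiment 1 and 9.68 at the lowest, 11.5 at the median and 14.6 at the highest under low stretch. In experiment 2 it was 20.2, 26.4 and 14.3 unstretched and 16.9, 26.7 and 22.8 under high stretch, and the groups overlapped in both experiments. The log2 fold changes were 0.13 ± 0.14 and 0.14 ± 0.27. The annotation places the microRNA gene Mir7115 on 64 exon bases of Arrb2.

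Pde3b (ENSMUSG00000030671), the PDE3 gene known for the action of insulin in fat and liver, had a CPM of 7.46, 9.30 and 12.7 in the unstretched samples of experiment 1 and of 6.14 at the lowest, 9.10 at the median and 12.3 at the highest under low stretch. Experiment 2 gave 3.36, 2.03 and 6.62 unstretched and 3.84, 1.95 and 3.21 under high stretch. The groups overlapped in both experiments, with log2 fold changes of −0.05 ± 0.22 and −0.40 ± 0.46. Pde3a (ENSMUSG00000041741), the form of heart and vascular muscle, had only 3 to 20 counts per sample, at most 0.0660 CPM. Its CPM was higher in all 6 low-stretch samples (0.0364 to 0.0660) than in the 3 unstretched ones (0.0236 to 0.0272), with a log2 fold change of 0.98 ± 0.30 that did not pass. It shares 741 exon bases with the antisense gene Gm28523, and the strand setting of the counting is not given in the sources used here, so its counts are uncertain.

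**Figure D2:**
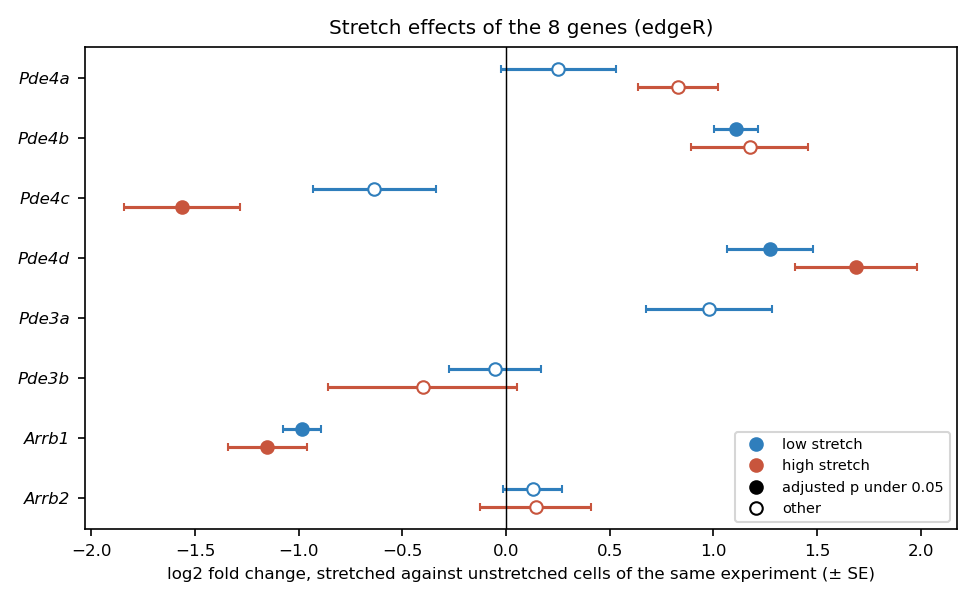
Log2 fold change (points, ± SE) of each gene in stretched against unstretched samples of its own experiment, low stretch in blue and high stretch in red; filled points passed an adjusted p under 0.05. Pde4b and Pde4d lie on the right and Arrb1 and Pde4c on the left at both amplitudes, and Pde3a has no high-stretch point because it was not tested there.

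Of the genes tested, 4 of 8 under low stretch (Pde4b, Pde4d, Pde3a and Arrb1) and 5 of 7 under high stretch (Pde4a, Pde4b, Pde4c, Pde4d and Arrb1) had groups that did not overlap, beside 15.3% and 20.6% of all genes tested. Whether the 2 amplitudes differed in effect was tested in 1 fit of the 15 samples, in which edgeR called 0 of 22015 genes, the 8 among them; 547 had an unadjusted p under 0.05, and DESeq2 called 0. The difference (high minus low, log2) was −0.95 ± 0.45 for Pde4c, 0.55 ± 0.37 for Pde4a, 0.39 ± 0.33 for Pde4d, −0.19 ± 0.20 for Arrb1 and −1.24 ± 0.65 for Pde3a, and between −0.37 and 0.04 for Pde3b, Arrb2 and Pde4b. So a gene that passed in 1 comparison and not in the other, such as Pde4b or Pde4c, is not shown to differ between them.

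The sample descriptions end in codes of a letter and a number whose meaning the labels do not give. Read as consecutive positions that go on from H to A of the next number, the codes fall into runs, here called code runs, each of 1 unstretched sample and the 1 or 2 stretched samples after it; low-stretch replicate 6 joins its run only by that step from H to A. Samples of the same code run deviated together in experiment 1 (mean correlation of deviations 0.44 within runs and −0.22 between them). The ranges were 0.33 to 0.57 within runs and −0.52 to −0.05 between them. In experiment 2 the mean was 0.18 within runs and −0.10 between them. There the ranges overlapped, at −0.16 to 0.45 within runs and −0.54 to 0.44 between them, so its runs are less clear. The main test and the SDs of the low-stretch samples take these samples as independent. Unstretched replicate 3 and low-stretch replicates 5 and 6, the low samples for Pde4a, form 1 code run. Set against the unstretched sample of its own run, every low-stretch sample (6 of 6) and every high-stretch sample (3 of 3) was higher for Pde4a, Pde4b and Pde4d, and lower for Pde4c and Arrb1. The within-run log2 ratios under low stretch were 0.83 to 1.44 for Pde4b, 0.98 to 1.66 for Pde4d, 0.09 to 0.44 for Pde4a, −0.998 to −0.0781 for Pde4c and −1.12 to −0.71 for Arrb1. Under high stretch they were 0.74 to 1.70, 1.25 to 2.39, 0.50 to 1.10, −2.22 to −1.09 and −1.62 to −0.80 in the same order of genes. Arrb2 and Pde3b had samples on both sides in each experiment, and Pde3a was higher in 6 of 6 low-stretch samples and in 1 of 3 high-stretch samples. All samples on the same side within runs was seen in 41.4% of the genes tested under low stretch and 37.4% under high stretch. With the code run as a term in the low-stretch fit, Pde4a, Pde4c and Pde3a also passed (6 of 8), where this fit called 28.2% of all genes tested. With it in the high-stretch fit, where it equals the replicate number, Pde4a and Pde4b also passed (5 of 7), beside 8.35% of all genes tested.

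**Figure D3:**
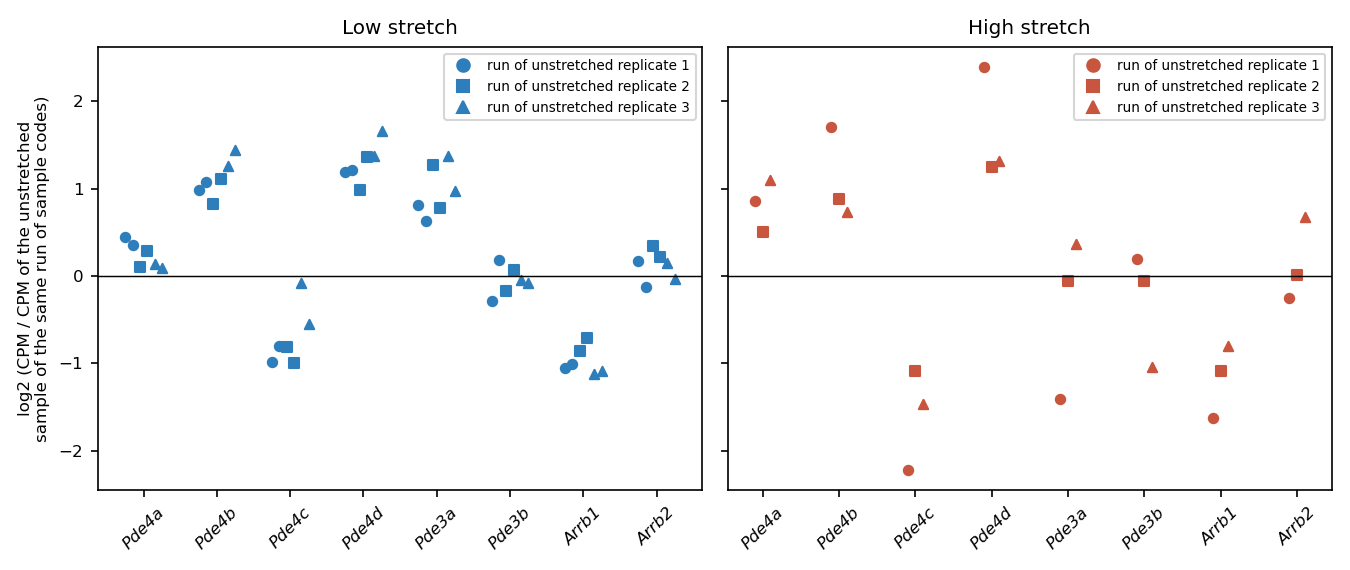
Log2 ratio of each stretched sample's CPM to that of the unstretched sample of the same code run, a grouping read from the sample codes and not named in the labels, for the 8 genes; marker shapes show the run. The 6 low-stretch points lie above 0 for Pde4a, Pde4b, Pde4d and Pde3a and below 0 for Pde4c and Arrb1.

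How far the calls rest on single samples differed between the amplitudes. Under low stretch Pde4b, Pde4d and Arrb1 passed with each of the 9 samples left out in turn and under all 7 other settings. Over all genes, the low-stretch fits with 1 sample left out called from 220 of 22054 to 1630 of 21543. Under high stretch none of the 7 genes passed without high-stretch replicate 1, without unstretched replicate 1 or without high-stretch replicate 3. In that order, those fits called only 90 of 18445, 122 of 19417 and 14 of 18550 genes, where the main fit called 643 of 18524. Calls were thus lost over all genes and not in these genes alone. Without high-stretch replicate 2, Arrb1 no longer passed and 2 genes did, and without unstretched replicate 3, 5 of 7 passed. The fits without these samples called 293 of 19561 and 1421 of 18297 genes. The direction of Pde4a, Pde4b, Pde4c, Pde4d and Arrb1 was the same in all 6 high-stretch fits with 1 sample left out.

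Levels of different genes were compared in TPM (transcripts-per-million), a measure scaled to transcript length, summed over each gene's transcripts. In unstretched cells of experiment 1 the order of mean levels was Arrb1 17.6, Arrb2 16.1, Pde4b 7.79, Pde4a 4.87, Pde3b 3.23, Pde4c 1.82, Pde4d 1.22 and Pde3a 0.00709 TPM; Arrb1 and Arrb2, and Pde4a and Pde3b, overlapped between samples. Under low stretch it was Arrb2 16.2, Pde4b 15.5, Arrb1 8.14, Pde4a 5.32, Pde3b 2.85, Pde4d 2.64, Pde4c 1.15 and Pde3a 0.00909 TPM, so that Pde4b stood above Arrb1 in every sample and Pde4d above Pde4c; Arrb2 and Pde4b overlapped, as did Arrb1, Pde4a, Pde3b and Pde4d from one to the next. In experiment 2 the unstretched order was Arrb2 18.9, Arrb1 18.8, Pde4a 3.95, Pde4b 3.60, Pde4c 1.68, Pde3b 1.01, Pde4d 0.455 and Pde3a 0.00403 TPM, and under high stretch Arrb2 20.5, Pde4b 7.83, Arrb1 7.61, Pde4a 6.55, Pde4d 1.37, Pde3b 0.618, Pde4c 0.563 and Pde3a 0.00307 TPM. Unstretched, the 2 beta-arrestins overlapped, as did Pde4a with Pde4b and Pde4c, Pde3b and Pde4d from one to the next. Under high stretch Pde4b, Arrb1 and Pde4a overlapped from one to the next, as did Pde3b and Pde4c.

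The ratio of Arrb1 to Arrb2 TPM was 1.15, 0.842 and 1.31 in the unstretched samples of experiment 1 and between 0.356 and 0.724 under low stretch. In experiment 2 it was 1.09, 0.824 and 1.11 unstretched and 0.379, 0.342 and 0.395 under high stretch, so stretched cells held less Arrb1 than Arrb2 RNA in all 9 samples. The 2 beta-arrestins together made 33.7 ± 2.5 TPM (SD, n = 3) unstretched and 24.3 ± 2.3 (n = 6) under low stretch, and 37.8 ± 1.5 (n = 3) unstretched and 28.1 ± 2.8 (n = 3) under high stretch. The 4 Pde4 genes together made 15.7 ± 2.4 and 24.6 ± 2.8 TPM in experiment 1, and 9.69 ± 1.79 and 16.3 ± 4.6 TPM in experiment 2. Pde4b took 49.7% of this sum in unstretched and 63.1% in low-stretch cells, without overlap, and 36.5% and 46.6% in experiment 2, where the groups overlapped. Pde4c went from 12.0% to 4.75% of the sum in experiment 1 and from 17.8% to 3.71% in experiment 2, and its share did not overlap between the groups in either.

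Within the genes, the balance of long and short forms moved little. Pde4b RNA was divided between a long form of 721 residues (Pde4b-207) and a short form of 564 residues (Pde4b-203). Their 5′ coding bases are shown because they are what tells the 2 transcripts apart; capitals mark bases found in that form and not in the other, for Pde4b-207 the first 60 coding bases and for Pde4b-203 the first 116 of 1692, followed by 24 bases that both share.
Pde4b-207: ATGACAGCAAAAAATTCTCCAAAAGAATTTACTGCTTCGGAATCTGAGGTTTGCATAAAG
Pde4b-203: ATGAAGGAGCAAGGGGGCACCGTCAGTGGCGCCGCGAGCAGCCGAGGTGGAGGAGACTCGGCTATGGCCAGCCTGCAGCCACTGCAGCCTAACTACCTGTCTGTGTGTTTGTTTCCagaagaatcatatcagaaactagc

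Long forms took 54.7%, 51.2% and 56.0% of Pde4b TPM in the unstretched samples of experiment 1 and between 52.2% and 56.2% under low stretch. In experiment 2 they took 45.01%, 40.1% and 47.5% unstretched and 44.98%, 43.7% and 41.9% under high stretch. The shares overlapped between the groups in both experiments. In TPM both forms were higher in every low-stretch sample than in any unstretched sample of experiment 1: Pde4b-207 was 4.20 ± 0.48 TPM (n = 3) unstretched and 8.54 ± 1.20 (n = 6) under low stretch, and Pde4b-203 was 3.50 ± 0.57 and 6.79 ± 0.67. In experiment 2 Pde4b-207 was 1.62 ± 0.68 and 3.43 ± 1.63 TPM and Pde4b-203 1.98 ± 0.58 and 3.31 ± 1.47 TPM (n = 3 each), and the groups overlapped for both.

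One short form differed in where it was listed. Pde4b-201, a protein of 484 residues that also lacks part of the second conserved block, was listed at 0 TPM in all 12 unstretched and low-stretch samples and at 1.47, 0.563 and 1.21 TPM in the 3 high-stretch samples, where it took 13.95 ± 3.9% of Pde4b (n = 3). An exact 0 in such a table can be a failed estimate. All 1452 coding bases of Pde4b-201 also lie in Pde4b-207 and in the 1576 that Pde4b-203 shares with it. Its coding bases therefore do not set it apart from either. The share of Pde4b-203 was 55.7% (52.5% to 59.9%) unstretched and 42.4% (39.7% to 45.2%) under high stretch, without overlap. That of Pde4b-207 was 44.2% and 43.5%. Whether the estimate moved TPM from Pde4b-203 to Pde4b-201 was not tested. limma's test of the share of Pde4b-201 in the gene under high stretch gave no call.

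Pde4d had the short form Pde4d-207 (584 residues) as its main transcript, with 0.587 ± 0.174 TPM (n = 3) unstretched and 1.34 ± 0.24 (n = 6) under low stretch, and 0.192 ± 0.099 and 0.554 ± 0.305 (n = 3 each) in experiment 2. Its first coding bases are shown for comparison with Pde4b-203: capitals mark bases not found in the long form Pde4d-202, followed by 24 that are.
Pde4d-207: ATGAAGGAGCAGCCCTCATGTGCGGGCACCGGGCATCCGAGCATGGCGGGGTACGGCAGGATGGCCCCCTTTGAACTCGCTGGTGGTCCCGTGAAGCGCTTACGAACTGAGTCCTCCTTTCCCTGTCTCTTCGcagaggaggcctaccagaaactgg

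Short forms made 48.4 ± 4.2% of Pde4d TPM (n = 3) in unstretched and 52.7 ± 4.5% (n = 6) in low-stretch cells, and 41.2 ± 11.6% and 39.3 ± 9.6% (n = 3 each) in experiment 2. The long Pde4d-201 (678 residues) was 0.021 to 0.212 TPM unstretched and 0.329 to 0.820 TPM under low stretch without overlap, but was listed at 0 in 1 high-stretch and 2 unstretched samples of experiment 2. The long Pde4d-205 (703 residues) took 9.14% to 30.1% of the gene unstretched and 3.40% to 8.44% under low stretch, also without overlap. In experiment 2 it took 5.97% to 25.8% unstretched and 0% to 8.24% under high stretch, and the groups overlapped. The long Pde4d-218 (753 residues) took 10.8% and 8.37% of the gene in the means of experiment 1 and 17.3% and 18.7% in those of experiment 2, and Pde4d-206, not counted as coding, 11.5% and 12.0%, and 18.6% and 25.1%.

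Pde4a and Pde4c were mostly long forms. Long forms took 83.9 ± 0.9% of Pde4a TPM (n = 3) in unstretched and 88.4 ± 2.8% (n = 6) in low-stretch cells, and 94.2 ± 1.9% and 94.7 ± 0.6% (n = 3 each) in experiment 2, most of it Pde4a-202 of 844 residues, which was 3.36 ± 0.37 TPM in unstretched and 5.73 ± 0.77 TPM in high-stretch cells. The rest was mainly Pde4a-204, a transcript with a retained intron, at 13.2% of the gene in unstretched cells of experiment 1 and 4.45% to 9.22% in the other groups' means. Pde4c has no short coding transcript among the 6 of its transcripts in the table. Its main form Pde4c-202 (686 residues) was 1.18 ± 0.22 TPM (n = 3) unstretched and 0.731 ± 0.285 (n = 6) under low stretch, and 1.27 ± 0.19 and 0.515 ± 0.099 (n = 3 each) in experiment 2, where the groups did not overlap. Of its minor transcripts, the long fragment Pde4c-203 (178 residues) took 7.42% and 7.52% in the means of experiment 1 and 15.7% and 3.16% in those of experiment 2. The transcripts not counted as coding, Pde4c-204 and Pde4c-206, were largest in unstretched cells of experiment 1, at 12.5% and 11.1%.

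limma's test of transcript usage, the share of a gene's TPM that a transcript takes, called 0 of the 24 transcripts of the 8 genes that could be tested under low stretch, where it called 0.0144% of 27720 transcripts, and 0 of 14 under high stretch, where it called 0% of 23408; 3 and 2 of them had an unadjusted p under 0.05. Pde3a was below the minimum of 1 TPM in both comparisons. Pde4d and Pde3b were below it over the samples of experiment 2, so their usage under high stretch was not tested. For Arrb1 the coding transcript Arrb1-202 took 65.2 ± 1.0% of the TPM (n = 3) in unstretched and 65.3 ± 5.7% (n = 6) in low-stretch cells, and 62.1 ± 3.7% and 65.1 ± 3.1% (n = 3 each) in experiment 2, while its level was 11.5 and 5.30 TPM, and 11.7 and 4.94 TPM. Arrb2-204 took between 47.3% and 49.99% of Arrb2 in the means of the 4 groups.

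**Figure D4:**
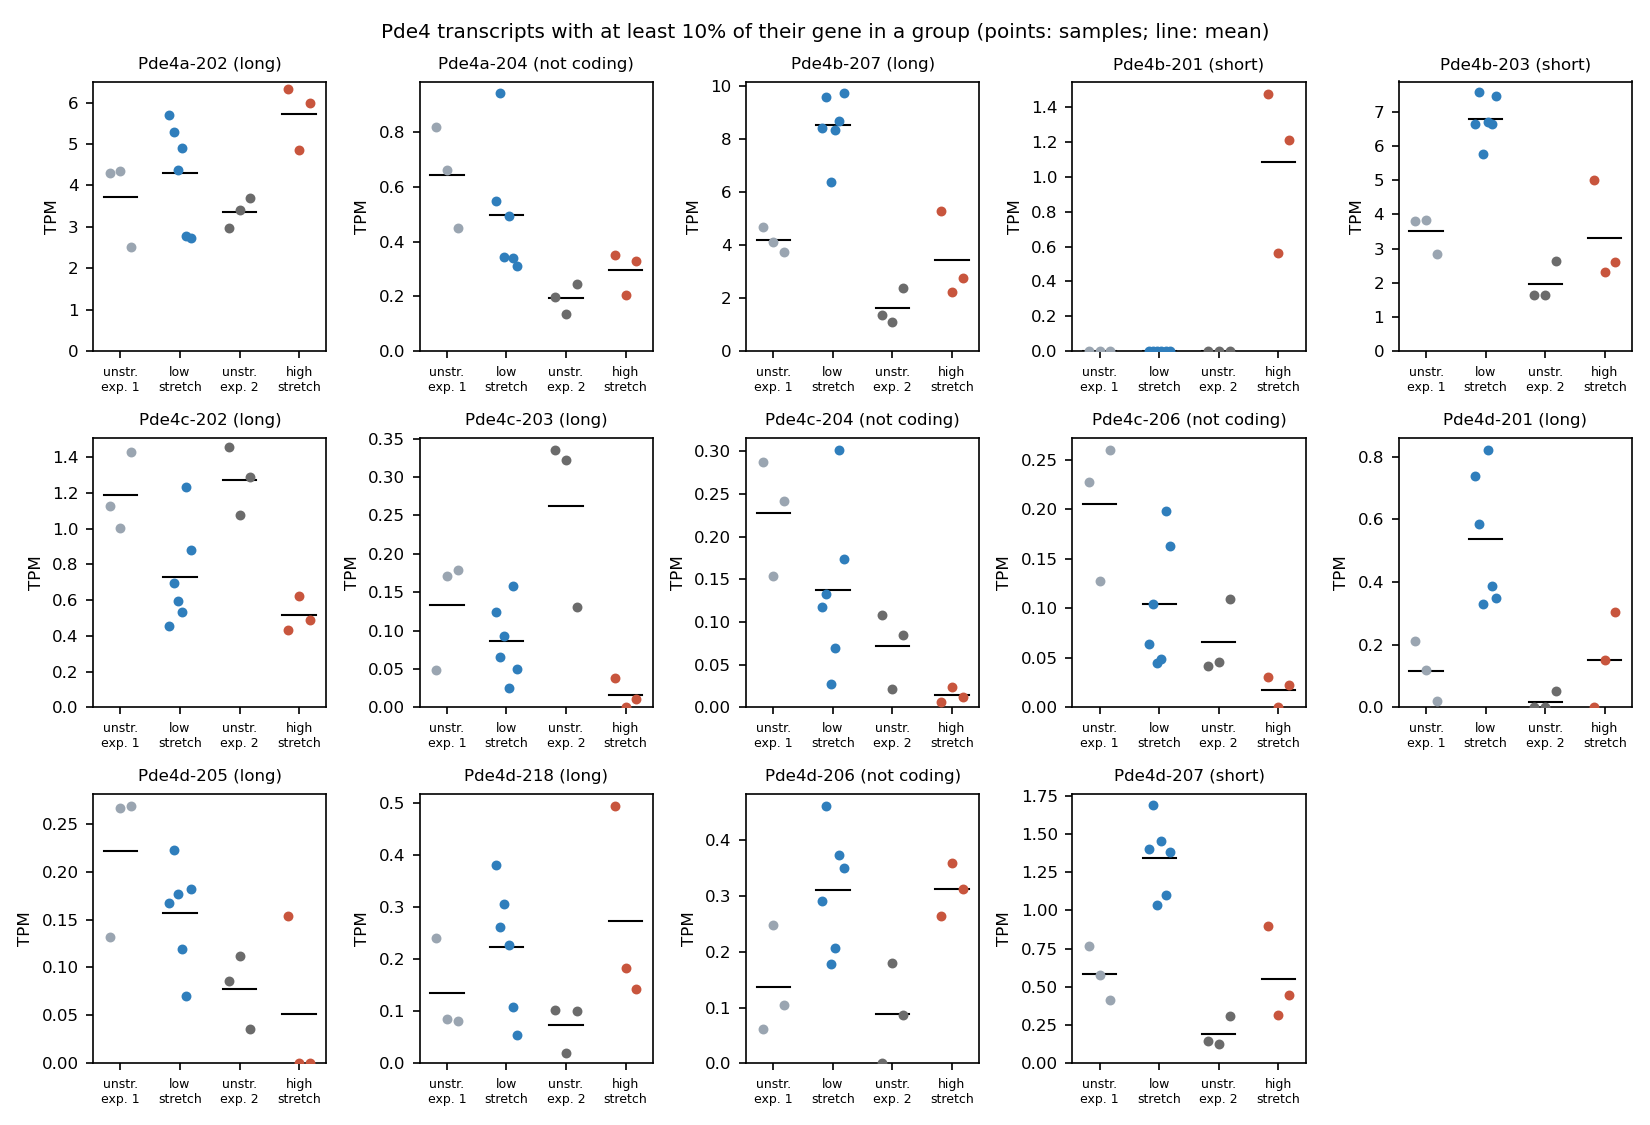
TPM of the Pde4 transcripts that held at least 10% of their gene in the mean of a group, by sample (points) with the group mean (line), each panel on its own linear axis from 0; "not coding" marks retained introns and transcripts annotated as targets of decay. Pde4b-207 and Pde4b-203 are both higher in every low-stretch sample than in any unstretched sample of experiment 1 and overlap between the groups of experiment 2, and Pde4b-201 is above 0 in the 3 high-stretch samples alone.

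RefSeq's table of promoters on GRCm38.p6 held 9 starts of the Pde4 genes (4 of Pde4b, 3 of Pde4a, 1 each of Pde4c and Pde4d) and none of Pde3a, Pde3b, Arrb1 or Arrb2. The 250 bases before 3 starts are shown, those of the main transcripts Pde4b-203, Pde4a-202 and Pde4c-202, because the stretch values of these genes differ in direction; capitals mark a match to a motif. The motifs searched on both strands were the cAMP response element TGACGTCA, its core TGACG (which the full element contains), the AP-1 site TGANTCA, the TEAD site GGAATG and the TATA box TATAAA; they occur in 1.55%, 17.8%, 6.75%, 12.6% and 12.4% of all 32851 promoters of this length.
Pde4b-203 (chr4:102569810-102570059, plus strand): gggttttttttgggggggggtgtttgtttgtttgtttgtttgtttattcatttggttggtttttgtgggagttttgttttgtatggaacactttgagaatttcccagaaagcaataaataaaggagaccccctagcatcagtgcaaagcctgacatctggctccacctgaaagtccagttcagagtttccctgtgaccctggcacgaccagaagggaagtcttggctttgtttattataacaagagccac
Pde4a-202 (chr9:21165464-21165713, plus strand): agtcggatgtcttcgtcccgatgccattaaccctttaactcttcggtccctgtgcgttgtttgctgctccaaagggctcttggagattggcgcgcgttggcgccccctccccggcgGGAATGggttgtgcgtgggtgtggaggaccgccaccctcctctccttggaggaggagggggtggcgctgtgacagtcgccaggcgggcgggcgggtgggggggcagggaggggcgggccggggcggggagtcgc
Pde4c-202 (chr8:70723814-70724063, plus strand): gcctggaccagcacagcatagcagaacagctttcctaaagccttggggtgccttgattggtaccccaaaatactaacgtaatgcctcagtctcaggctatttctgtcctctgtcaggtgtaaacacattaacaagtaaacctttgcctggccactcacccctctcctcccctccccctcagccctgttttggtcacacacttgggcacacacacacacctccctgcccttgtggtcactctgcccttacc

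Pde4a-202 had a TEAD match 134 bases before its start, and the other 2 windows had no match. Of the 6 other windows, those of Pde4b-205 and Pde4a-203 had the core TGACG of the cAMP response element, 34 and 50 bases before the start. Pde4b-205 was listed at 0 TPM in every sample, as was Pde4d-209, the transcript of the only Pde4d start. None of the starts was that of the main long form Pde4b-207. These are matches of letters in a window and not measured sites.

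The unstretched cells of the 2 experiments differed in these genes, a contrast that is not one of the 2 stretch comparisons. Of 7 genes tested, 5 passed, against 62.5% of all 20707 genes tested, so the share is near that of genes at large (29.7% higher and 32.7% lower in experiment 2). In experiment 2 Arrb2 (log2 difference 0.91 ± 0.24, edgeR adjusted p = 0.0127) and Arrb1 (0.63 ± 0.20, adjusted p = 0.0238) were higher, and Pde4b (−0.65 ± 0.19, adjusted p = 0.0181), Pde4d (−0.93 ± 0.29, adjusted p = 0.0211) and Pde3b (−1.31 ± 0.41, adjusted p = 0.0239) were lower. Pde4a (0.30 ± 0.25, adjusted p = 0.328) and Pde4c (0.38 ± 0.25, adjusted p = 0.217) did not pass. In TPM the order of these differences was kept but each was lower, with Pde4a at 4.87 and 3.95 TPM and Pde4c at 1.82 and 1.68 TPM, both opposite in direction to their CPM, and Arrb1 at 17.6 and 18.8 TPM. Between 1 and 5 of the 7 passed when 1 sample was left out: 1 without unstretched replicate 2 of experiment 1 or replicate 1 of experiment 2, 2 without replicate 1 and 3 without replicate 3 of experiment 1. Over all genes, the fits with 1 sample left out called from 9312 of 20991 to 15698 of 21495. Levels set across the experiments therefore carry this difference.

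The rest of the pathway was described from 11 lists of 116 other genes. Beside the list counts that follow, edgeR called 5.45% of all 21672 genes tested under low stretch and 3.47% of 18524 under high stretch. An unadjusted p under 0.05 in edgeR's test was reached by 5104 and 2705 of these genes, and DESeq2 called 2837 and 1403. Among the enzymes that make cAMP, 2 of 7 adenylyl cyclases tested fell under low stretch, Adcy1 (35.3 ± 6.3 CPM, n = 3, to 19.0 ± 4.6, n = 6; log2 −0.90 ± 0.20, edgeR adjusted p = 0.0277) and Adcy9 (−0.40 ± 0.09, adjusted p = 0.0357), and 0 of 6 passed under high stretch (2 at an unadjusted p under 0.05, 0 with DESeq2). The list's median was −0.36 and −0.26. The most abundant cyclase, Adcy6, stood at 83.4 ± 4.3 TPM unstretched and 60.3 ± 11.2 under low stretch, and at 67.4 ± 10.4 and 48.3 ± 3.8 in experiment 2, and did not pass.

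Of the G protein alpha subunits that stimulate or inhibit cyclases, 3 of 7 passed under low stretch and 0 of 7 under high stretch (2 at an unadjusted p under 0.05, 0 with DESeq2). Inhibitory Gnai3 rose (0.26 ± 0.06, edgeR adjusted p = 0.0312), and Gnai1 (−0.70 ± 0.18, adjusted p = 0.0456) and Gnaz (−0.45 ± 0.11, adjusted p = 0.0437) fell. Gnas, which encodes the stimulatory subunit, had the highest level at 802 TPM but only 8.27 CPM of gene counts on average, so the 2 scales disagree on it and no direction is given. Of 28 genes for receptors that raise cAMP, or their accessory proteins, 0 of 16 tested passed under low stretch (1 at an unadjusted p under 0.05, 1 with DESeq2) and 2 of 14 rose under high stretch: Adora2b, an adenosine receptor (0.922 ± 0.323 to 3.41 ± 1.10 CPM, n = 3 each; log2 1.9 ± 0.36, adjusted p = 0.0300), and Ptgir, a prostacyclin receptor named after its values were seen, at 0.0885 CPM on average. Ptger4, a receptor for prostaglandin E2, was the most abundant of them at 6.53 TPM and did not pass.

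Downstream of cAMP, 0 of 8 PKA subunits and inhibitors passed in either comparison, with Prkar1a the most abundant at 141 TPM; 0 under low stretch and 1 under high stretch had an unadjusted p under 0.05 in edgeR's test, and DESeq2 called 0 and 1. Rapgef3, which encodes Epac1, fell under high stretch (73.4 ± 22.9 to 27.96 ± 6.5 CPM, n = 3 each; log2 −1.37 ± 0.28, edgeR adjusted p = 0.0408) as 1 of 3 other effectors tested, and 0 of 3 passed under low stretch (1 at an unadjusted p under 0.05, 1 with DESeq2). Of 17 A-kinase anchors and PDE4 partners, Akap12, a scaffold for PKA and receptors, rose under low stretch (1220 ± 141 to 1860 ± 147 CPM, n = 3 and 6; log2 0.60 ± 0.11, adjusted p = 0.0114) and 0 passed under high stretch (1 at an unadjusted p under 0.05, 0 with DESeq2); Rack1, a PDE4D5 partner, was the most abundant at 1039 TPM and did not pass. Of 6 CREB family genes, Crem rose under low stretch (20.2 ± 2.5 to 34.1 ± 4.5 CPM, n = 3 and 6; log2 0.75 ± 0.12, adjusted p = 0.00838), and 0 of 6 passed under high stretch (0 at an unadjusted p under 0.05, 0 with DESeq2).

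Genes known to be induced by cAMP and CREB did not move as one. Under low stretch 3 of 10 passed: Dusp1, a phosphatase of MAP kinases, rose (50.3 ± 18.6 to 163 ± 40 CPM, n = 3 and 6; log2 1.68 ± 0.27, edgeR adjusted p = 0.00914), Nr4a2 rose (0.72 ± 0.15, adjusted p = 0.0251) and Fos fell (−0.89 ± 0.15, adjusted p = 0.00966). Under high stretch 2 of 10 rose: Dusp1 (110 ± 42 to 284 ± 19 CPM, n = 3 each; log2 1.37 ± 0.29, adjusted p = 0.0456) and Areg, named after its values were seen, at 0.112 CPM on average. The list's medians were −0.09 and −0.03.

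Among the other genes of the families, 0 of 4 other cAMP phosphodiesterases tested passed edgeR's test in either comparison (1 and 2 at an unadjusted p under 0.05, 1 and 1 with DESeq2). Pde7a was the most abundant, at 51.2 ± 9.7 TPM unstretched and 45.8 ± 13.3 under low stretch, and 18.2 ± 11.8 and 12.5 ± 3.0 in experiment 2. Pde7a thus stood above each of the 4 Pde4 genes in the mean of all 4 groups. G protein-coupled receptor kinases, which prepare receptors for arrestin, had 0 of 5 and 0 of 4 passing (1 and 0 at an unadjusted p under 0.05, 0 and 0 with DESeq2), with Grk2 the most abundant at 71.3 TPM. Of the visual and alpha-arrestins 0 of 7 passed under low stretch (2 at an unadjusted p under 0.05, 1 with DESeq2) and 1 of 6 under high stretch: Arrdc3, an adaptor that acts on beta-adrenergic receptors, fell (11.1 ± 2.4 to 3.99 ± 0.19 CPM, n = 3 each; log2 −1.46 ± 0.23, edgeR adjusted p = 0.0184). Txnip was the most abundant alpha-arrestin, at 82.4 TPM, and did not pass.

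Most of these calls rested on few samples. Over all genes, the fits with 1 sample left out called 220 to 1630 under low stretch, where the main fit called 1181. Under high stretch they called 14 to 1421, where the main fit called 643. Of the low-stretch calls, Crem and Dusp1 held with each of the 9 samples left out, Akap12 and Fos in 8 of 9, Adcy1 and Nr4a2 in 5, Gnai1 and Gnai3 in 3, and Adcy9 and Gnaz in 2. Of the high-stretch calls, Adora2b and Arrdc3 held in 2 of 6 and Rapgef3 and Dusp1 in 1 of 6. Under the replicate block, in a fit that also left out low-stretch replicates 4 to 6, 8 of the 10 low-stretch calls were lost (Adcy9, Akap12, Gnai1, Gnai3, Gnaz, Crem, Nr4a2 and Fos). The part of the block and that of the smaller number of samples in this loss were not separated. In one fit of all 15 samples 6 were lost (the same without Akap12 and Crem), and with no filter 3 (Adcy9, Gnai3 and Gnaz). The high-stretch call of Dusp1 was lost with a mean count of at least 100. Genes called at 1 amplitude also had values at the other. Under high stretch the log2 fold change was 0.59 ± 0.23 for Akap12, 0.61 ± 0.27 for Crem, 1.32 ± 0.40 for Nr4a2 and −2.84 ± 0.89 for Fos. For Adcy1, Adcy9, Gnai1, Gnaz and Gnai3 it was −0.45, −0.28, −0.71, −0.47 and −0.01. Under low stretch it was −0.83 ± 0.21 for Rapgef3, 1.48 ± 0.40 for Adora2b and −0.76 ± 0.23 for Arrdc3.

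**Figure D5:**
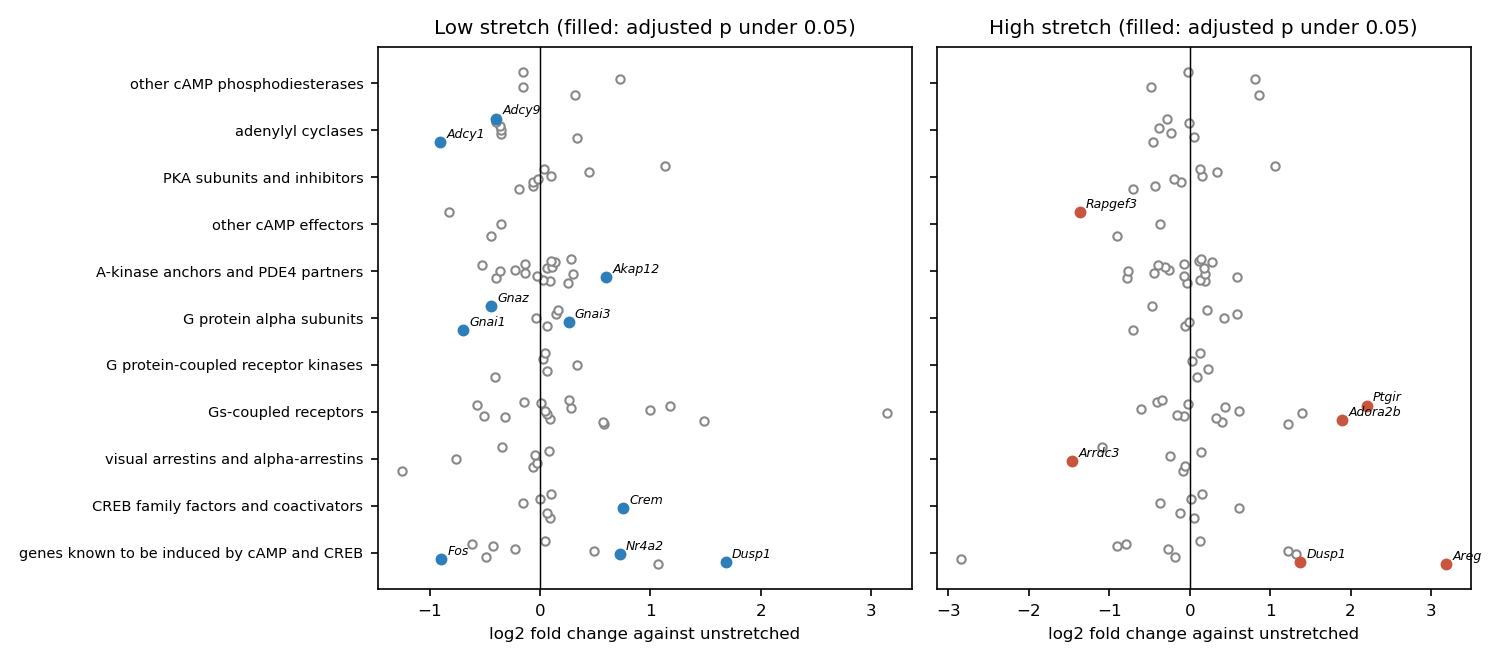
Log2 fold change of every tested gene of the 11 pathway lists under low stretch (left) and high stretch (right); filled, named points passed an adjusted p under 0.05. Most genes lie near 0 in both panels, and the 0 of 8 PKA genes and 0 of 4 other phosphodiesterases that passed are seen as open points.

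The genes whose pattern over the 15 samples was most like that of Pde4d, as log2 CPM after subtraction of the unstretched mean of the same experiment and among 12962 genes, were Taok3 (Pearson r = 0.985), Jph1 (0.983) and Gm8773 (0.980). Those most like Pde4c were Agbl5 (0.987), Pnmal2 (0.983) and Tmprss6 (0.978). These are the highest of many correlations over samples that share their libraries and the split into stretched and unstretched, and they are given as a description. Jph1 went from 2.47 to 5.70 CPM with low stretch and from 1.56 to 5.08 CPM with high stretch, and Tmprss6 from 7.86 to 3.70 and from 21.8 to 1.27 CPM.

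The podocyte label was checked against markers. Synpo, Podxl, Cd2ap and Actn4 were expressed in every sample (256 to 837, 95.7 to 202, 10.3 to 158 and 577 to 1911 CPM), whereas Nphs1, which encodes nephrin, reached at most 1.00 CPM and so was near 0. Endothelial markers summed to at most 0.227 CPM. Of the immune list, Csf1r fell with the genes above, from 23.6 ± 1.4 CPM (n = 3) to 8.31 ± 2.78 (n = 6) under low stretch and from 24.1 ± 1.4 to 5.87 ± 1.72 (n = 3 each) under high stretch (log2 −1.51 and −2.02; edgeR adjusted p = 0.00739 and 0.00808), while Cd68 was 1.15 and 1.07 CPM in experiment 1 and 1.04 and 1.88 CPM in experiment 2 (log2 0.86 under high stretch, adjusted p = 0.165, without overlap), and Ptprc and Cd3e were at most 0.0543 and 0.00638 CPM. The summed immune list, mostly Csf1r, lay between 23.5 and 26.2 CPM in all unstretched samples, between 6.72 and 13.1 under low stretch and between 5.90 and 9.87 under high stretch. Lrp2 of the tubule list fell under low stretch (log2 −0.65, adjusted p = 0.0227), as did Pdgfrb of the mesangial list (−0.56, adjusted p = 0.0199), and Wt1 of the podocyte list fell under high stretch (−2.36, adjusted p = 0.0311). The part of these in the changes of Arrb1, Pde4b, Pde4c and Pde4d was not tested, and in bulk RNA fewer cells of a type and less RNA per cell cannot be told apart. The summed podocyte list was 1201 to 1334 CPM unstretched and 1307 to 1555 under low stretch, and 1645 to 2646 and 2185 to 2897 in experiment 2. Mitochondrial genes took 3.55% to 5.21% of the counts in experiment 1 and 1.14% to 2.60% in experiment 2, with overlap between stretched and unstretched samples in each.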

How the data were processed

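Poly(A) RNA of 15 SVI samples was sequenced as stranded paired-end libraries, per the labels' protocols. The authors deposited whole-number counts for 55416 genes and TPM values for 140789 transcripts. Per the submitters' processing notes, build mm39 was used, and the tools included STAR 2.7.5c, featureCounts, Subread 2.0.0, Salmon 1.9.0 and DESeq2 1.38.3; the annotation and strand setting are not given in the sources used here. Totals of 172.2 to 396.7 M counts per sample, whose unit (reads or pairs) is not stated, make counting error small except for Pde3a. TPM carries no depth.

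Groups came from the titles. Symbols, transcript types and lengths came from GENCODE M21, which matched 52083 genes and 137189 transcripts by identifier; transcripts it lacks are in no gene's TPM sum. Proteins were aligned with mafft 7.526, and the conserved blocks are windows of 20 residues with at least 60% identity. edgeR 4.0.16 (R 4.3.3) served for all gene tests, by the quasi-likelihood F test after TMM scaling and filterByExpr, with Benjamini-Hochberg adjustment over all genes and a threshold of 0.05, with each stretched group against its own unstretched samples, a contrast of the 2 effects over 15 samples, and the unstretched groups against each other. The standard error is the size of the log2 fold change divided by the square root of F. Transcript usage was tested with limma 3.58.1 on log2 TPM of the transcript minus log2 TPM of the rest of the gene, with 0.1 TPM added to both, for genes of at least 1 TPM and mean fractions of 0.05 to 0.95. The tests were tested on simulated data.

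The members and lists were chosen with earlier results of these data known. Named are all 8 members; per pathway list and comparison up to 4 genes that passed with a mean of at least 1 CPM, and the list's most abundant gene; Pde4 transcripts with at least 10% of their gene in a group; and, for the 2 members with the largest high-stretch changes, the 3 genes most like them. Alternatives were DESeq2 1.42.0, scaling by RLE, leaving out the filter on counts or asking for a mean of 100 or more, blocks on replicate number or code run, one fit of all samples, each sample left out, and for usage pseudocounts of 0.01 and 1 TPM, a gene minimum of 5 TPM and no filter. Fits with the replicate block held only samples numbered 1 to 3, so low-stretch replicates 4 to 6 were not in them. Replicate numbers were not taken to pair samples, because not every same-numbered pair deviated together.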

Additional observations from a re-analysis of the deposited data

Results flagged for a closer look

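Of 12 sets of values from the low-stretch samples that were tested for a sample far from the others, 1 held such a sample; chance gives about 1 in 20. Low-stretch replicate 3 had 52.2% of its Pde4b TPM in long forms, whereas the nearest of the other 5 had 55.1%, a gap of 0.713 of the group's whole range. The value lies within the range of the unstretched samples of the same experiment.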

How the results depend on the processing

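The fit decided how many genes passed more than which way these 8 genes lay. The low-stretch count of 1181 became 490 with the replicate block, 6106 with the code run block, 2837 with DESeq2 and 640 in one fit of all 15 samples. The replicate-block fit left out low-stretch replicates 4 to 6, so it differs from the main fit in samples as well as in the block. The code run block kept every sample of the experiment. The members called stayed at 3 of 8 under the replicate block and became 6 under the code run block. The high-stretch count of 643 became 1403 with DESeq2, 1050 with no filter, 414 with a mean count of at least 100, 1546 with the replicate block (which equals the code run block there) and 1488 in one fit of all samples, and the members called went from 3 to 5 with DESeq2 and with either block. The difference of effects went from 0 to 3 genes with the code run block, none of them a member. The replicate numbers share only a number in the titles: same-numbered samples correlated between −0.44 and 0.36 in experiment 1 and between −0.16 and 0.45 in experiment 2.

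With each sample left out, the low-stretch count ranged from 220 (without unstretched replicate 3) to 1630, and was 378 and 725 without unstretched replicates 1 and 2 and 730 and 606 without low-stretch replicates 2 and 4; members called stayed at 3. The high-stretch count ranged from 14 (without high-stretch replicate 3) to 1421 (without unstretched replicate 3), and was 90, 293 and 122 without high-stretch replicates 1 and 2 and unstretched replicate 1; members called ranged from 0 to 5. The comparison of unstretched groups ranged from 9312 to 15698 genes and from 1 to 5 members. With 1 sample left out of a group of 3, the fit pools the spread over groups.

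Transcripts called under low stretch went from 4 to 1 and 75 with pseudocounts of 0.01 and 1 TPM, 89 with no filter, 0 with the replicate block and 37 with the code run block, and from 1 to 8 with samples left out. Here too the replicate-block fit left out low-stretch replicates 4 to 6. Under high stretch they went from 0 to 3 with a pseudocount of 1 TPM, 9 with no filter and 0 to 10 with samples left out.

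Values near 0 changed sign. Gnai3 under high stretch (log2 −0.01) became 0.00115 with DESeq2, 0.00104 with RLE size factors, 0.016 with no filter and 0.077 with either block, and lay between −0.26 and 0.45 with samples left out. The difference of effects of Pde4b (0.04) became −0.000649, −0.000599 and −0.010 with DESeq2, RLE and the code run block, that of Pde3b (−0.37) became 0.040 with the replicate block, and that of Arrb2 (−0.01) became 0.026 and 0.020 with a mean count of at least 100 and the code run block. With samples left out these 3 lay between −0.27 and 0.22, −0.69 and 0.28, and −0.17 and 0.22. Pde3b lay between −0.22 and 0.16 under low stretch and between −0.70 and 0.22 under high stretch, and Arrb2 between −0.027 and 0.38 under high stretch. Causes of these shifts were not tested.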
